A study of Homo sapiens with 3 samples.

Results

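The mRNA of a lung-directed hepatocellular carcinoma (HCC) subclone was compared with that of the line it came from. All 16149 genes listed in any of the 3 libraries of the study were matched by gene number between the subclone 1 and the parent library, a gene missing from a library was taken as 0, and the comparison was read over the 11370 genes whose mean over the 3 libraries was at least 1 RPKM (reads scaled to transcript length and library total). The parent is HCCLM3, an established human HCC line, and in the study's methods a derivative of it that expresses red fluorescent protein. The labels give it a low ability to metastasize, although the study's methods describe the line as highly metastatic. Subclone 1 has, by its label, a higher ability that is specific to the lung, and subclone 2, used here only for values set beside those of subclone 1, spreads to lung and celiac lymph node. Both subclones are monoclones, each grown from a cell of a metastasis in nude mice that carried the parental tumour in the liver, and which of the named clones were sequenced was not given in the sources used here. Every line was grown in DMEM and its RNA taken with Trizol. Passage through a mouse, cloning and lung tropism all separate subclone 1 from the parent and cannot be told apart in these data.

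There was 1 library per line, so that no difference was tested. The parent library held 4488825 reads and that of subclone 1 held 4609696, as read from the steps of the RPKM values, and 98.8% of the 11370 genes could be given whole numbers of reads. Intervals below are exact 95% intervals on these reads. They cover counting error only, and a difference is called beyond counting error where the interval of its fold excludes 1. Log2 ratios were computed with 0.1 added to each RPKM, and the change of low genes is understated on this scale.

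HCC cells descend from hepatocytes, which secrete albumin, apolipoproteins, clotting factors, complement and acute phase proteins and lose much of this output as a tumour dedifferentiates. Many of the same secretory and immune genes respond to nuclear factor kappa B (NF-kB), the transcription factor of inflammatory signalling, and to interferons through a response element in their promoters. The study proposes that VCAM1, an adhesion receptor for leukocytes, SPARC, a secreted protein that binds collagen, and ANGPTL4 might drive spread to the lung. It likewise proposes ITGA1, an integrin subunit, for spread to lymph nodes, and rests these proposals on mRNA and protein levels. It leaves the function of these genes to further work. The liver label was only partly borne out by the defining hepatocyte markers. HNF4A, the master regulator of hepatocytes, was at 11.7 RPKM in the parent and 11.9 RPKM in subclone 1, whereas SERPINA1 had 1 and 4 reads, APOA1 1 and 3 reads, and TTR none in either library.

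Subclone 1 exceeded the parent by 2-fold or more in 557 of the 11370 genes, a background share of 4.90%, and fell below it by 2-fold or more in 207, a background share of 1.82%. The 2-fold counts of every list below are to be read against these shares. For list counts beyond counting error at any fold, the share over all 11370 genes was not computed. Genes with many reads pass that mark at small folds. Of the genes with whole reads, 473 of 553 higher and 170 of 206 lower genes differed beyond counting error. Higher genes thus made up 72.9% of those that changed, and 57.8% when the libraries were divided by ACTB. A mean over the 3 libraries more easily admits genes high in both subclones than genes high in the parent alone. With the filter over parent and subclone 1 only, the share was 70.7%, and without a filter 63.3%. At 4-fold or more, 139 genes were higher and 52 lower. The median log2 ratio of all 11370 genes was 0.0, and 50.4% of them lay above 0. Changes were concentrated among weakly transcribed genes. Of 3159 genes with a mean of 1 to 5 RPKM, 10.3% were at least 2-fold higher and 4.31% lower, against 1.08% and 0.307% of the 651 genes above 100 RPKM. The genes nearest the line on the higher side were WDR54, at a log2 ratio of 1.00, and EBF4, which at 0.9975 just missed it.

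**Figure D1:**
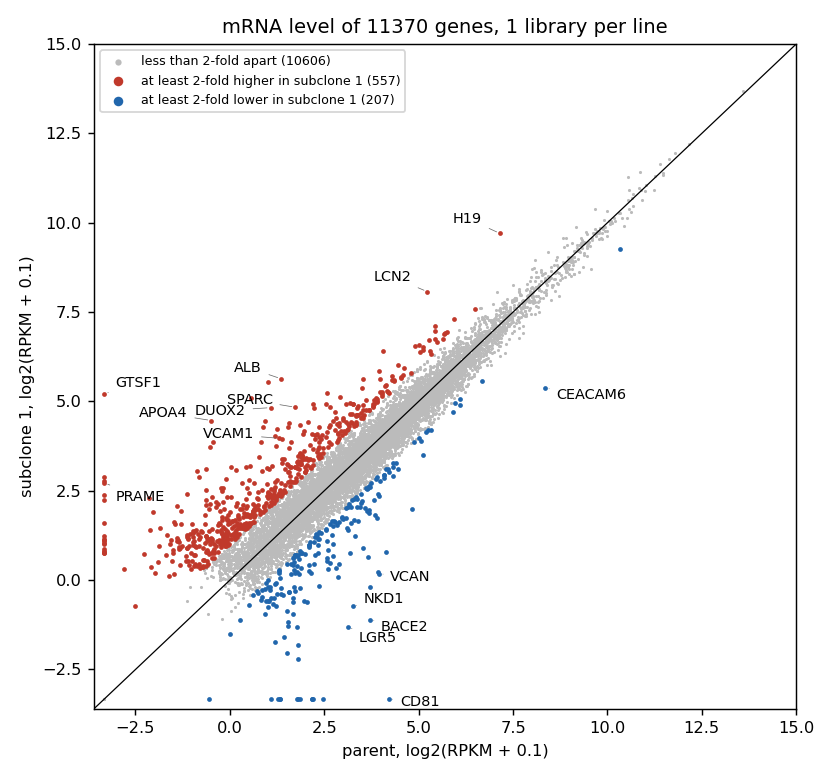
Level of each of the 11370 genes in the parent (x axis) and in subclone 1 (y axis), both as log2 of RPKM plus 0.1, with 1 library per line. Red points are the 557 genes higher by 2-fold or more, blue points the 207 lower by 2-fold or more, grey points the rest, and the line marks equal levels. GTSF1 and PRAME sit at the left edge, where the parent is at 0, and CD81 at the bottom edge, where subclone 1 is at 0.

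The most one-sided differences were genes read in only one of the libraries. Of the 11370 genes, 18 were listed in subclone 1 and not in the parent, 12 of them with at most 3 reads. The reverse held for 13 genes, 9 of them with at most 3 reads, and these thinly read genes, mostly small nucleolar RNAs and microRNAs so short that a few reads exceed 1 RPKM, took 12 of the 25 highest and 9 of the 25 lowest log2 ratios.

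GTSF1, a germline protein of the piRNA pathway that silences transposons, headed the ranking. It had no read in the parent and 140 reads, 36.9 RPKM, in subclone 1, which is at least 45.4-fold higher than the limit of 3 reads that a count of 0 allows. Subclone 2 had 19.3 RPKM. PRAME, a cancer-testis antigen, likewise went from 0 to 83 reads. Genes of this class are transcribed in the germline, are silent in most adult tissues and reappear in tumours. Of the 57 entries in the list of cancer-testis antigens and GTSF1, 38 were listed in none of the libraries and 10 entered the comparison, with 5 at least 2-fold higher and 1 lower. On the X chromosome MAGEC1 went from 43 to 323 reads, a 7.32-fold difference (5.31 to 10.3), and its neighbour MAGEC2 from 34 to 167 reads. ACTL8 went the other way, from 22 reads to 2. Abundant members did not follow: SSX1 was at 174 RPKM in the parent and 162 RPKM in subclone 1.

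Where the promoter is poor in CG dinucleotides, a gene is more often restricted to certain tissues, while CG-rich promoters belong mostly to genes used in every cell. The bases before the RefSeq start of GTSF1 (chr12:54473603-54473752) and of SPARC (chr5:151686916-151687065), both on the minus strand of GRCh38.p14, are shown here to give the context of these strong differences, 5′ to 3′ with every CG in capitals.

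GTSF1: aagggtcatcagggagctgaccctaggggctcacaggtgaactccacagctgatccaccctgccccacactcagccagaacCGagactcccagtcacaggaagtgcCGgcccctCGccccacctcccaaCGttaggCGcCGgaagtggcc
SPARC: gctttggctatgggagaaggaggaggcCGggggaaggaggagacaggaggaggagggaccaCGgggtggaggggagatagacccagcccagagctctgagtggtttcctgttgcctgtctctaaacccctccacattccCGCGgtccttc

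In RefSeq windows from 250 bases before to 50 after the start, GTSF1 had 10 CG and SPARC 11, against a median of 26 over the 9235 compared genes with such a window. The 400 higher genes with a window had a median of 17.5 CG (quartiles 6 and 30), the 134 lower genes 25.5, and the 8701 genes under 2-fold 27. The RefSeq start may not be the start used in these cells.

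The lists of liver secretory genes all had medians above 0. Among carrier and marker proteins, 4 of 8 compared genes were at least 2-fold higher, 1 was lower, and the median log2 ratio was 1.36. Albumin (ALB), the main plasma carrier, had 25 reads and 2.46 RPKM in the parent and 517 reads and 49.5 RPKM in subclone 1, a 20.1-fold difference (13.5 to 31.4). Angiotensinogen (AGT), the precursor of angiotensin, went from 1.72 to 19.5 RPKM. The iron carrier transferrin (TF) was 5.30-fold higher (3.70 to 7.79), at 30.3 RPKM against 5.71 in the parent and 5.88 in subclone 2. RBP4, which carries retinol in plasma, was in contrast 5.96-fold lower (2.28 to 19.7), with 29 reads in the parent and 5 in subclone 1. AFP, the fetal counterpart of albumin, was at 2.41 and 4.16 RPKM, a fold of 1.73 whose interval of 0.998 to 3.06 included 1.

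Acute phase proteins, which the liver secretes in inflammation, had the highest median of the lists with 10 or more compared genes. Of 11 compared genes, 7 were at least 2-fold higher and 1 lower, with a median log2 ratio of 2.02. LCN2, a protein that binds bacterial siderophores, was the most abundant of them, at 37.4 RPKM in the parent and 269 RPKM in subclone 1. All 3 chains of fibrinogen, the clotting protein whose genes adjoin on chromosome 4, were higher. FGA had 19 and 110 reads, FGG 1 and 39 reads, and FGB 1.66 and 14.5 RPKM, its reads being unresolved. SAA1 went from 0 to 8 reads, which cannot be separated from reads of its near-identical copies. The exception was ITIH2, a hyaluronan-binding plasma protein, with 34.8 RPKM in the parent, 11.3 RPKM in subclone 1 and 53.2 RPKM in subclone 2.

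Apolipoproteins and their loading machinery were higher by 2-fold or more in 5 of 12 compared genes and lower in none. APOA4, made mainly by the intestine and carried on chylomicrons, had 4 reads in the parent, 148 in subclone 1 and 20 in the other subclone, which puts subclone 1 at 36.0 times the parent (13.8 to 134). APOE, a ligand of lipoprotein receptors, had 3, 26 and 4 reads in the same order. Both were thus nearer to the parent in subclone 2. MTTP, which loads lipid onto apolipoprotein B, followed another order, with 2.50, 9.54 and 17.0 RPKM, and so did APOB with 0.300, 1.23 and 4.17 RPKM. The abundant CLU was at 177 and 178 RPKM.

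Clotting and complement genes were at least 2-fold higher in 9 of 22 compared cases and lower in none, with a median log2 ratio of 0.71. The central complement component C3 went from 21 to 207 reads, a 9.60-fold difference (6.12 to 15.8). Factor B (CFB), which joins it in the alternative pathway, had 11 and 60 reads. Prothrombin (F2) had 7 and 31 reads. Membrane inhibitors of complement differed little, as CD46 had 70.7 and 70.5 RPKM and CD55 28.7 and 29.5 RPKM.

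Among hepatocyte transcription factors, 5 of 20 compared genes were at least 2-fold higher and 2 lower, around a median log2 ratio of 0.23. NR1H4, the bile acid receptor FXR, had 9 reads in the parent and 62 in subclone 1, a 6.71-fold difference (3.32 to 15.3). CREB3L3, a membrane-bound liver factor of lipid metabolism, was at 9.48 and 30.6 RPKM. PPARA, the fasting receptor, was 2.55-fold higher (2.01 to 3.26). The lower pair were PROX1, at 44 and 11 reads, and TBX3, at 197 and 65 reads. Of the members below the level filter, FOXA3 had 14 reads in the parent and 1 in subclone 1, while ONECUT1 and KLF15 each had 0 and 1. Of 17 compared cytochrome P450 genes, 12 lay above 0 with a median log2 ratio of 0.40, and 7 were higher and 3 lower beyond counting error. At 2-fold, CYP2B6 alone was higher, with 5 and 19 reads, a share near the background of 4.90%. Below the level filter, CYP2J2 had 12 reads in the parent and 1 in subclone 1 and CYP39A1 13 and 3, while CYP8B1 had 1 and 6.

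**Figure D2:**
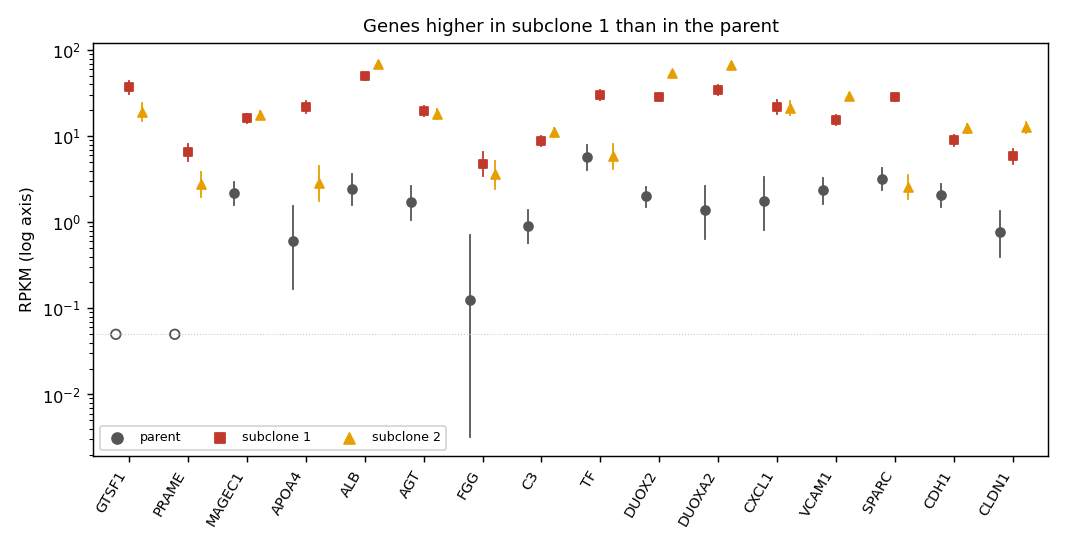
RPKM on a log axis of 16 genes that were higher in subclone 1, in the parent (circles), subclone 1 (squares) and subclone 2 (triangles), with 1 library per line. Vertical lines are exact 95% Poisson intervals, and open symbols on the dotted line mark 0. TF, SPARC and APOA4 are the genes whose triangle is nearest the parent, at 5.88, 2.60 and 2.90 RPKM.

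Genes of lipid metabolism differed in direction by branch. Of 25 genes of cholesterol synthesis, 21 lay below a log2 ratio of 0, 15 of them beyond counting error, with a median of -0.47. At 2-fold, only squalene epoxidase (SQLE), at 60.1 and 26.1 RPKM, and the isoprenoid enzyme IDI1, at 40.2 and 18.4 RPKM, were lower. Fatty acid oxidation and genes linked to the PPAR receptors were at least 2-fold higher in 7 of 22 cases. PDK4, a kinase that holds back glucose oxidation, had 7 and 35 reads. ANGPTL4, a secreted inhibitor of lipoprotein lipase, was at 10.3 RPKM in the parent and 24.4 RPKM in subclone 1, 2.37-fold higher (1.84 to 3.05). The fatty acid carrier FABP5 was lower, at 61.4 and 33.8 RPKM.

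Inflammatory ligands formed the next group. Of 19 compared chemokines and interleukins, 10 were at least 2-fold higher, none was lower, and the median log2 ratio was 1.01. On chromosome 4 the 5 neighbouring compared genes IL8, CXCL1, CXCL5, CXCL3 and CXCL2, which encode chemokines for neutrophils, were all at least 1.5-fold higher. CXCL1 had 9 reads in the parent and 113 in subclone 1, a 12.2-fold difference (6.22 to 27.4). CXCL5 was the most abundant, at 38.4 and 105 RPKM. CXCL3 had only 7 and 13 reads, and its interval of 0.671 to 5.35 included 1.

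A site bound by NF-kB is a textbook feature of these promoters. The letters GGG, any 2 bases and then TTTCC or TTCCC were searched on both strands of the RefSeq windows, and a match was present in 438 of the 9235 promoters, or 4.74%. They were found in 6 of 12 chemokine and interleukin promoters with a window, those of CXCL1, CXCL2, CXCL3, CXCL5, CCL20 and IL32, and in 8 of 20 promoters of NF-kB subunits and targets. The 400 higher genes held them in 5% of cases, close to the share in all promoters. Stretches of 4 neighbouring chemokine promoters are shown with the match in capitals, to compare the match and its flanks in CXCL1 (chr4:73869289-73869348, plus strand), CXCL2 (chr4:74099239-74099298, minus), CXCL3 (chr4:74038734-74038793, minus) and CXCL5 (chr4:73998734-73998793, minus) of GRCh38.p14.

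CXCL1: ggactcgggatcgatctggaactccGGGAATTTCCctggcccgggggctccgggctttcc
CXCL2: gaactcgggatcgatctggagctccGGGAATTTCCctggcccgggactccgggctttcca
CXCL3: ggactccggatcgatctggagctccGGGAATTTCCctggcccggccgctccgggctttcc
CXCL5: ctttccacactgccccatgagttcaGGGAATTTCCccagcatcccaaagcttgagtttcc

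The matched letters are the same in these 4 promoters, and the flanks of CXCL1, CXCL2 and CXCL3 are alike, while the measured folds of their genes ran from 1.81 for CXCL3 to 12.2 for CXCL1.

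Of 24 compared NF-kB subunits, feedback genes and targets, 4 were at least 2-fold higher and 1 lower, with 15 higher and none lower beyond counting error. The highest was VCAM1, with 34 reads and 2.35 RPKM in the parent, 231 reads and 15.6 RPKM in subclone 1, and 29.4 RPKM in subclone 2. BIRC3, an inhibitor of cell death, was at 8.97 and 30.8 RPKM. ICAM1, an adhesion receptor of the same family as VCAM1, was 2.16-fold higher (1.96 to 2.39) at 84.5 RPKM. REL, a subunit of NF-kB, was the lower gene, on 13 and 5 reads, a difference within counting error.

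Interferon-stimulated genes differed more mildly, with 6 of 37 compared genes at least 2-fold higher, none lower and a median log2 ratio of 0.38. IFI44 had 3 and 19 reads, XAF1 12 and 62, and IFI27 15 and 44. OAS1, an abundant antiviral enzyme, was not higher, at 75.1 and 65.1 RPKM. In the presentation of antigens by MHC class I, 4 of 22 compared genes were at least 2-fold higher and none lower. HLA-B had 4.38 and 17.0 RPKM, HLA-C 17.3 and 43.9 RPKM, and the immunoproteasome subunit PSMB9 4.25 and 13.7 RPKM, the HLA values being uncertain where reads match several of these similar genes. B2M, the light chain that all of them share, was higher by 1.59-fold (1.502 to 1.675), at 759 RPKM in subclone 1.

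The letters TTTC, any 2 bases and TTTC, the core of the interferon response element, were present on either strand in 250 of the 9235 promoters, or 2.71%. They stood in 19 of 29 promoters of interferon-stimulated genes and in 9 of 19 of the antigen presentation list. Of the 400 higher genes, 26 held them, or 6.5%, and of the 134 lower genes 2. The stretches of IFI44 (chr1:78649746-78649788), IFIT1 (chr10:89392495-89392554) and IFI27 (chr14:94110616-94110675), all on the plus strand of GRCh38.p14, show the element in 3 of the higher genes. That of VCAM1 (chr1:100719642-100719741, plus strand) is printed with the NF-kB letters and these letters both in capitals, in that order.

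IFI44: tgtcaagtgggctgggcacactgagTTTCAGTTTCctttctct
IFIT1: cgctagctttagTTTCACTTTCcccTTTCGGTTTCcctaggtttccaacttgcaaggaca
IFI27: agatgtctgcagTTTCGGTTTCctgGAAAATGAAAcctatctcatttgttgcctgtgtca
VCAM1: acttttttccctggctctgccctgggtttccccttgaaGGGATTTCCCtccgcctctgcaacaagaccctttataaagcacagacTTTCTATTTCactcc

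In IFI27 the second run of capitals is a match on the opposite strand. A match of letters is a description and does not show that a factor was bound.

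DUOX2 and DUOXA2 are a pair of adjoining genes that were both strongly higher. DUOX2 is a dual oxidase that makes hydrogen peroxide at epithelial surfaces, and DUOXA2 is the partner that it needs to leave the endoplasmic reticulum. DUOX2 had 58 reads in the parent and 837 in subclone 1, a 14.1-fold difference (10.8 to 18.7), and DUOXA2 had 9 and 229 reads, a 24.8-fold difference (12.8 to 54.9). Subclone 2 was higher still for both, at 54.5 and 66.9 RPKM against 28.3 and 34.2 RPKM in subclone 1. The genes are transcribed away from each other, and the 153 bases between their RefSeq starts, chr15:45114173-45114325 of GRCh38.p14, are given on the plus strand, in the direction of DUOXA2, with CG in capitals.

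DUOX2 and DUOXA2: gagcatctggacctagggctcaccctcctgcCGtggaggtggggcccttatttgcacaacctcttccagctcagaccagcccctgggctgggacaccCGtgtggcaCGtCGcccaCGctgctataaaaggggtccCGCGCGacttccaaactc

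Junction and adhesion genes differed by list, and their counts stand against background shares of 4.90% higher and 1.82% lower. Of 18 tight junction genes, 6 were at least 2-fold higher and 1 lower. CLDN1, a sealing claudin, had 12 reads in the parent and 93 in subclone 1, and CGN, a cytoplasmic junction protein, had 132 and 375. E-cadherin (CDH1), which joins epithelial cells, was 4.31-fold higher (3.10 to 6.09). ZEB2, a repressor of E-cadherin, was higher as well, by 2.60-fold (2.01 to 3.39). The list of EMT regulators and mesenchymal markers also holds epithelial genes, E-cadherin among them. Of its 16 compared genes, 3 were at least 2-fold higher, E-cadherin and ZEB2 included, and 1 was lower. ZEB1, a relative of ZEB2, was at a log2 ratio of -0.65. PRRX1, a mesenchymal factor below the level filter, had 34 reads in the parent and none in either subclone. Among integrins, the receptors for matrix, ITGA1, ITGB3 and ITGA5 were at least 2-fold higher of 12 compared, with 23 and 73 reads for ITGA1. The adhesion molecule CEACAM6 showed the reverse, with 328 RPKM in the parent, 41.3 RPKM in subclone 1 and 142 RPKM in subclone 2.

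Matrix genes differed in both directions. SPARC had 46 reads and 3.22 RPKM in the parent and 417 reads and 28.5 RPKM in subclone 1, an 8.83-fold difference (6.50 to 12.2), with 2.60 RPKM in subclone 2. The small proteoglycans decorin (DCN), with 8 and 47 reads, and lumican (LUM), with 48 and 117 reads, were higher. Versican (VCAN), a large proteoglycan, was lower, with 862 reads in the parent and 59 in subclone 1, a fold of 0.0667 (0.0503 to 0.0868). Also lower were the gelatinase MMP2, at 12.7 and 3.79 RPKM, and TIMP3, an inhibitor of such proteases, at 62.3 and 30.8 RPKM. The collagen crosslinking enzyme LOX, itself counted among hypoxia genes, was 4.54-fold higher (3.60 to 5.80).

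Fibroblasts also transcribe SPARC, DCN and LUM, so the defining genes of other cell types were read in the same libraries. Of 14 fibroblast markers, 8 were above 0 in the parent and 9 in subclone 1, and their summed level was 54.6 and 77.9 RPKM, with 70.2 RPKM in subclone 2. COL1A1 had 9 and 11 reads and COL1A2 1 read in each library, and COL3A1 was lower, at 4.42 and 2.21 RPKM. Of 14 endothelial markers, 6 and 8 were above 0 with sums of 40.6 and 55.4 RPKM, CDH5 having 0 and 1 read. The 4 endothelial markers that entered the comparison all lay above 0, at a median log2 ratio of 1.01. At 2-fold, 2 of them, EGFL7 and PECAM1, were higher and none was lower, against background shares of 4.90% and 1.82%. EGFL7 lay at 1.62 and PECAM1 at 1.53. Endoglin (ENG), outside this list but among the 25 highest ratios, went from 9 to 215 reads. Of 16 blood cell markers, 8 and 6 were above 0 with sums of 85.6 and 128 RPKM, most of it CD68, while PTPRC, which marks all white blood cells, had 1 and 0 reads. The 14 lung epithelial markers summed to 0.614 and 1.04 RPKM, 4 of them being above 0 in each library. In bulk RNA, fewer cells of a kind and less RNA per cell cannot be told apart. The part of such cells in the matrix and immune values was not tested.

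**Figure D3:**
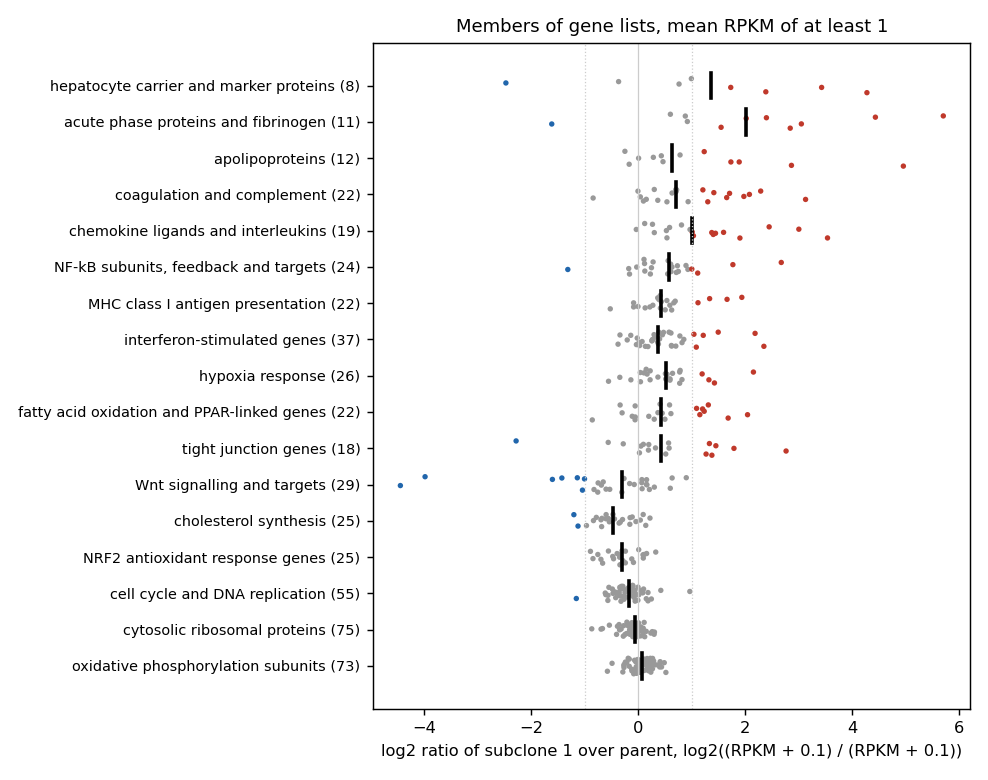
Log2 ratio of subclone 1 over the parent for the members of 17 gene lists with a mean of at least 1 RPKM (number of members in brackets). Each point is a gene, red at 2-fold higher or more and blue at 2-fold lower or more, the black bar is the median of the list, and vertical position within a row carries no meaning. The bar of acute phase proteins lies at 2.02 and that of ribosomal proteins at -0.07.

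On the lower side, Wnt signalling was the list with the most members. Wnt ligands stabilize beta-catenin, which switches on a set of feedback genes that in turn restrain the pathway. Of 29 compared genes, 7 were at least 2-fold lower and none higher, against the background share of 1.82%, and 14 were lower beyond counting error against 4 higher. LGR5, a stem cell receptor that amplifies the signal, had 56 reads in the parent, against 2 in subclone 1 and 1 in subclone 2. NKD1, a feedback inhibitor, had 110, 6 and 5 reads. AXIN2, a scaffold that degrades beta-catenin and is among the most general targets of the pathway, was 2.01-fold lower (1.74 to 2.33), at 29.05 and 14.4 RPKM. The ligand WNT5A went from 20.01 to 7.37 RPKM. DKK1, a secreted inhibitor, was at 63.1 and 66.3 RPKM, a difference within counting error.

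Single genes of other pathways were also lower. INHBB, a subunit of activin B, was 10.7-fold lower (7.06 to 17.1), from 17.4 to 1.62 RPKM. INHBA, the subunit of activin A, had 14 and 30 reads in the opposite direction. BMP4 was at 15.5 and 4.99 RPKM and BMP6 at 12.8 and 3.56 RPKM, while ID1, a direct target of these ligands, was at 270 and 331 RPKM. SOCS2, a brake on growth hormone signalling, had 57 reads in the parent and 9 in subclone 1. In serine synthesis PHGDH, its committed enzyme, was 4.59-fold lower (3.07 to 7.06), and PSAT1, the next enzyme, was 1.96-fold lower (1.73 to 2.22). SLC7A2, a carrier of cationic amino acids, had 94 and 5 reads. Among other genes of the lowest ratios, BACE2, a membrane protease, went from 175 to 5 reads and NMRAL1, a redox sensor, from 82 to 5 reads.

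**Figure D4:**
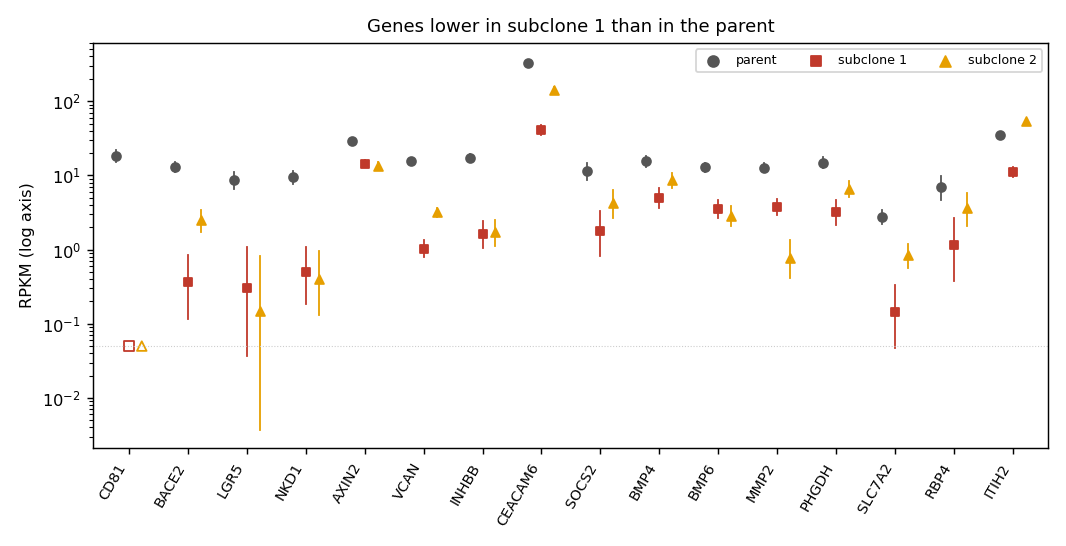
RPKM on a log axis of 16 genes that were lower in subclone 1, in the parent (circles), subclone 1 (squares) and subclone 2 (triangles), with 1 library per line. Vertical lines are exact 95% Poisson intervals, and open symbols on the dotted line mark 0. CD81 is at 0 in both subclones, and ITIH2 is the gene whose triangle, at 53.2 RPKM, exceeds the parent at 34.8 RPKM.

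CD81, a tetraspanin that organizes membrane receptors and serves as a receptor for hepatitis C virus, had the lowest ratio of all 11370 genes. Its 124 reads in the parent, 18.5 RPKM, faced no read in either subclone, so that subclone 1 was at least 42.4-fold lower. Of 20 compared tetraspanins, CD81 was the only one at least 2-fold lower, and 3 were higher, TSPAN8 reaching 49.0 RPKM from 15.8 RPKM. The genes listed beside CD81 on chromosome 11 were all read in subclone 1. H19, an imprinted noncoding RNA on one side, went from 142 to 832 RPKM, a 5.85-fold difference (5.54 to 6.19), and TSSC4 on the other side went from 58 to 32 reads. CDKN1C, an imprinted inhibitor of the cell cycle farther along, was 2.81-fold higher (2.21 to 3.62). CD33, a lectin of myeloid cells, was, among the 11370 compared genes, the other protein-coding gene with over 20 reads that was not read in subclone 1, going from 29 reads to 0.

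Housekeeping programmes differed only mildly, in part in one direction. None of 73 oxidative phosphorylation subunits, 75 cytosolic ribosomal proteins or 33 proteasome subunits was 2-fold apart, and their median log2 ratios were 0.06, -0.07 and -0.12. Beyond counting error, 34 ribosomal protein genes were lower and 5 higher, and 14 proteasome genes were lower and 2 higher. These counts and those below have no background share beside them and depend on read depth and scaling. Of the oxidative phosphorylation genes, 7 were lower and 10 higher. In the cell cycle and replication list, 44 of 55 genes lay below 0 with a median of -0.18, and 27 were lower and 2 higher beyond counting error. CDC25A, a phosphatase that opens S phase, was alone in being at least 2-fold lower. CDKN1A (p21), which arrests the cycle, was at 20.01 and 39.2 RPKM. Of 25 NRF2 antioxidant genes, 19 were lower beyond counting error with a median of -0.31, and none reached 2-fold. In hypoxia genes the median was 0.53, with CA9, a carbonic anhydrase of hypoxic tumours, at 10.99 and 25.3 RPKM.

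Differences were also ordered along chromosomes. Over 11332 genes placed in RefSeq order, the short arm of chromosome 3 was lower almost throughout. From SETMAR to SUCLG2, 280 consecutive compared genes had a median log2 ratio of -0.52, and 249 of them, 88.9%, lay below 0. Of these, 21 were at least 2-fold lower and none was higher. The 370 genes beyond SUCLG2 had a median of -0.04, with 52.4% below 0. The same 280 genes had a median of -0.32 in subclone 2. PBRM1, a chromatin remodelling subunit, was at 12.9 and 5.97 RPKM, and CTNNB1, which encodes beta-catenin, at 110 and 72.1 RPKM. The ribosomal protein genes with the lowest ratios, RPL14 at -0.87, RPL32 at -0.70, RPSA at -0.67 and RPL29 at -0.54, and CDC25A all lie in this stretch.

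On chromosome 7 the median of 577 genes was 0.18, the highest of any chromosome, and 48 genes were at least 2-fold higher against 4 lower. The stretch from ARHGEF5 to LMBR1, its ends set by the ratios in the same way, held 52 genes. Their median was 0.42 with 80.8% above 0, and in subclone 2 it was 0.45. Within it lie NOS3, the endothelial nitric oxide synthase, with 7 and 35 reads, and GIMAP2 with 5 and 20. Windows of 25 genes with a median of 0.4 or more in size made 6 higher stretches, on chromosomes 7, 9, 17 and 22, and 3 lower ones, on chromosomes 3 and X. DNA copy number was not analysed here.

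**Figure D5:**
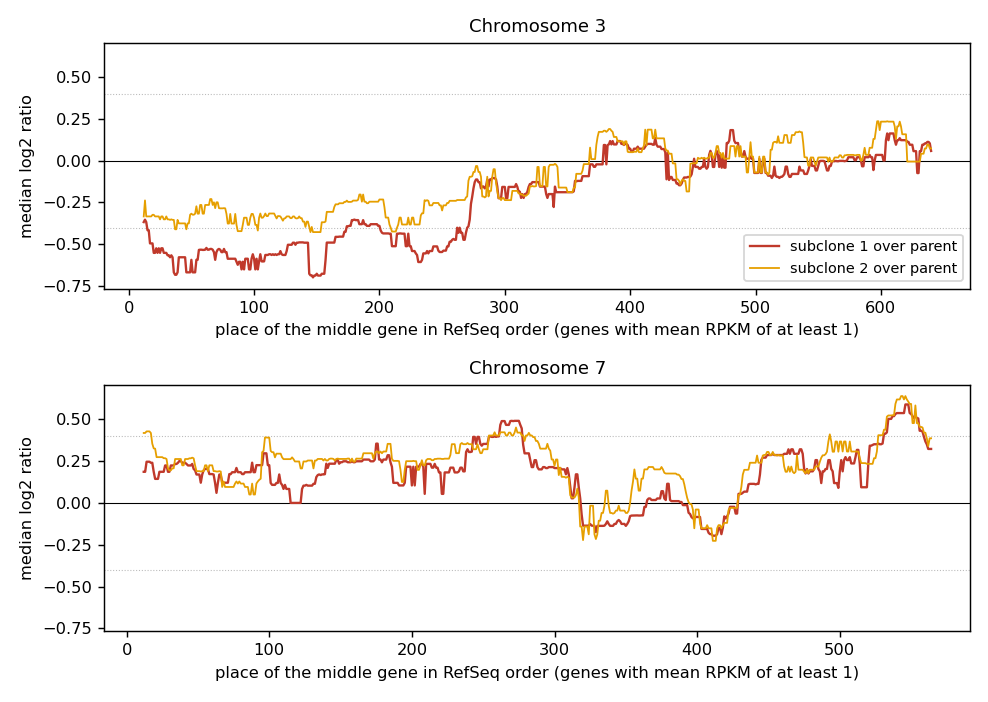
Median log2 ratio over the parent in sliding windows of 25 compared genes along chromosomes 3 and 7, for subclone 1 (red) and subclone 2 (orange), against the rank of the middle gene in RefSeq order. Dotted lines mark medians of 0.4 in size. The red line stays well below 0 over the first 280 or so genes of chromosome 3 and lies above 0 over most of chromosome 7.

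Shorter runs of at least 4 neighbouring genes that all differed by 1.5-fold or more in the same direction numbered 11 higher and 7 lower. The run with the highest median log2 ratio, 2.77, was FGB, FGA, FGG, TDO2, CTSO and PDGFC on chromosome 4. In it TDO2, an enzyme of tryptophan breakdown, had 9 and 53 reads, and PDGFC, a growth factor for stromal cells, had 2 and 52 reads. A run of 5 on chromosome 14 joined the interferon genes IFI27L1, IFI27 and IFI27L2 with the serpins SERPINA5 and SERPINA3, at a median of 1.4958, against 0.4744 in subclone 2. Of the 7 lower runs, 4 lay on the short arm of chromosome 3.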

How the data were processed

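Total RNA of 3 cultured lines, 1 library each, was prepared with the Illumina TruSeq RNA kit. The authors deposited RPKM values per gene number and symbol, listing only genes above 0. The build given with the submitters' processing notes is hg19, and the aligner and counting tool are not given in the sources used here. Whole reads were recovered from the steps of the RPKM values (15872 genes, at least 95.8% of each library's total). A total of 21 symbols turned into dates were restored. Ratios used a pseudocount of 0.1, genes averaging 1 RPKM or more across the 3 libraries formed the background, and no test was run with 1 library per line. Exact Clopper-Pearson and Poisson intervals cover counting error only. A library at 0 was given the limit of 3 reads. Chromosome order and promoters came from RefSeq (GRCh38.p14), with 99.4% of gene numbers found and 9235 of 11370 compared genes having a promoter window. Named genes were the 7 given or studied, the 25 highest and lowest ratios and the largest RPKM changes. They also included the 4 highest and lowest of each list, runs of neighbours, and the genes nearest 2-fold. DUOX2, DKK1, CCL20, PRRX1, FOXA3, ONECUT1, KLF15, CYP2J2, CYP39A1, CYP8B1, marker genes and genes of chromosome 3 or 7 were added after values were seen. The window median of 0.4 was likewise chosen after values were seen. Members and lists were chosen with earlier results of these data known. The ratios and intervals were tested on simulated data. Python 3.11.15, numpy 2.4.6, pandas 2.3.3, scipy 1.17.1 and matplotlib 3.10.9 were used.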

Additional observations from a re-analysis of the deposited data

Results flagged for a closer look

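In 4 genes the 2 subclones moved in opposite directions from the parent by at least 2-fold, each beyond counting error. With 1 library per line, these differences were not tested. CLDN2, a pore-forming claudin, was at 7.11 RPKM in the parent, 17.3 RPKM in subclone 1 and 2.34 RPKM in subclone 2, with log2 ratios over the parent of 1.27 and -1.56. ITGB3, an integrin subunit that binds RGD-containing matrix proteins, had 18, 58 and 5 reads in the same order and log2 ratios of 1.54 and -1.54. INHBA had 14, 30 and 3 reads, with log2 ratios of 1.01 and -1.97. GPR110, an adhesion receptor, went the other way, with 25, 6 and 71 reads and log2 ratios of -1.87 and 1.38.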

How the results depend on the processing

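The counts of genes at least 2-fold apart depended on pseudocount, filter and threshold by construction, and on ACTB. With a pseudocount of 1 there were 347 higher and 117 lower genes, without a filter 1523 and 884, above an average of 5 RPKM 233 and 71, and at 1.5-fold 1317 and 848. Division by ACTB gave 449 higher and 328 lower, so that higher genes made up 57.8% of those that changed in place of 72.9%. Under the other scalings, a pseudocount of 0.01 and a filter over parent and subclone 1 alone, both counts stayed within 1.5 times, as they did with at least 20 reads, chosen after seeing the data (471 and 166). Of 49 ratios of 7 genes (SPARC, VCAM1, APOA4, GTSF1, CD81, ANGPTL4, ITGA1), 48 stayed within their counting interval, and that of CD81 moved to -4.28 with a pseudocount of 1. Of 630 list medians, 621 stayed within the range of their members' intervals, and none whose interval excluded 0 changed sign. Runs of 3 genes at 2-fold numbered 6 higher and 0 lower. Centring on the median, tried for the chromosome stretches after seeing the data, kept their counts within 1.5 times. Genes with few reads limit the rest, as in APOA4 with 4 reads in the parent. No paired analysis was possible because each line has 1 library.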
